A study of Mus musculus with 6 samples.

Results

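Blood vessels of muscle are lined by endothelial cells and wrapped by mural cells, that is, pericytes on capillaries and smooth muscle cells on arteries and veins. A set of 37 genes that mark these cells was followed in muscle RNA of mice that lack Rpt3 in their muscle fibers. The genes were listed by name for the cells they mark: 26 endothelial genes, 7 mural cell genes and 4 growth factors that act on vessels. Of these, 36 were among the 18563 genes with a named probe on the array. The samples were whole muscles from 3 Rpt3 null female mice and 3 control female mice at 6 weeks of age, with 1 array per mouse. In both groups the strain carried the Mlc1f-Cre transgene, and the labels also name a floxed Rpt3 allele for both. The Rpt3 null mice were Mlc1f-Cre/Rpt3 f/f, called Rpt3-/-, and the controls were described by the study as Mlc1f-Cre/Rpt3+/+ and are called Rpt3+/+. Rpt3, also named Psmc4, encodes an ATPase subunit in the base of the proteasome regulatory particle. The Cre is driven by the promoter of the fast myosin light chain 1, which is active in skeletal muscle fibers, so that the gene was not targeted in endothelial or mural cells, and the controls carried the Cre too. The sample labels name the tibialis anterior, whereas the study describes microarray analysis of the gastrocnemius.

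Endothelial cells of a capillary are held together by junction proteins such as Pecam1 and VE-cadherin, and they survive and sprout under the control of VEGF receptors and of the angiopoietin receptor Tie2. Mural cells are recruited and kept by PDGF signaling through Pdgfrb. Muscle fibers are themselves a source of VEGF-A, so that fibers and capillaries are matched in healthy muscle, and in whole tissue the marker genes give a reference that lies outside the fiber.

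Of the 37 genes, 36 had a named probe and 33 were tested, which required a probe above the local background on at least 3 of the 6 arrays. Eng, which encodes the TGF-β coreceptor endoglin, had no named probe. Cdh5, which encodes VE-cadherin and is a defining endothelial gene, was above background on 2 arrays, Notch3, a receptor of mural cells, on 1 array and Angpt1, the activating ligand of Tie2, on none, so that these genes have no fold change here. Of the 33 tested genes, 31 were above background on all 6 arrays, including the defining genes Pecam1, Kdr, Tie1, Emcn and Vwf of endothelial cells and Pdgfrb, Cspg4, Rgs5 and Myh11 of mural cells. Flt1 was above background on 4 arrays and Nos3 on 5.

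Among the 33 tested genes, 3 fell in Rpt3-/- mice, Cav1, Ptprb and Rgs5, and 1 rose, Pdgfrb, at an adjusted p under 0.05 in limma, a linear model fitted over 14732 genes. This was 9.09% lower, against 6.56% of all tested genes, and 3.03% higher, against 12.7% of all tested genes. The log2 fold change (log2 intensity in Rpt3-/- minus Rpt3+/+ mice) lay between -0.5 and 0.5 for 26 of the 33 genes (78.8%), against 81.1% of all tested genes, and its 95% interval lay within -1 and 1 for 27 of them (81.8%), against 87.3% of all tested genes. The exceptions to the latter were Cav1, Pecam1, Vegfa, Rgs5, Plvap and Pdgfrb. The 3 Rpt3-/- arrays all lay below the 3 Rpt3+/+ arrays for 5 genes, Cav1, Ptprb, Rgs5, Flt4 and Erg, where 15.6% of all tested genes did so, and all above for 3 genes, Pdgfrb, Plvap and Vegfb, where 21.2% did so. The median log2 fold change of the 33 genes was -0.13, against -0.01 for all tested genes, with 21 values below 0 and 12 above, whereas with each array centred on its median in place of quantile normalization the median of the 33 genes was 0.00076, against 0.05 for all. In whole muscle, fewer cells of a type and less RNA per cell cannot be told apart. The counts of vessel genes that rose and fell were 0 and 1 without the first Rpt3-/- array, 0 and 3 without the third, 1 and 9 without the first Rpt3+/+ array, 3 and 3 without the second and 0 and 2 without the third. All tested genes gave 1870 and 967 with all arrays. In these fits they gave, in the same order, 1258 and 475, 1155 and 543, 1873 and 1418, 2332 and 1359, and 1081 and 388.

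Arrays of the same group differed for these genes. The first Rpt3+/+ array was the lowest of the 3 Rpt3+/+ arrays for 23 of the 33 genes (69.7%), against 44.7% of all tested genes. Among the Rpt3-/- arrays, the first was the lowest for 17 genes (51.5%, against 35.2% of all tested genes). The third was the lowest for 3 (9.09%, against 31.4%). The first Rpt3+/+ array lay at least 0.5 below the mean of the other Rpt3+/+ arrays, on the log2 scale, for 7 genes (21.2%), against 9.65% of all tested genes, and for none was it as far above. These were Cav1, Pecam1, Myh11, Vegfa, Cd34, Rgs5 and Tek, with differences of -1.26, -1.01, -0.85, -0.82, -0.64, -0.57 and -0.52. Without the first Rpt3+/+ array Pecam1, Vegfa, Cd34, Myh11, Tek and Flt4 also passed as lower. None of these passed in any other fit that leaves out an array. That array was singled out by its values for these same genes. The labels give nothing that sets this mouse apart from the others. Its array had the largest share of probes above background, 74.5%, and the second Rpt3+/+ array the smallest, 57.0%. The mean deviation of the 33 genes from their means over the 6 arrays was -0.11, 0.23 and 0.09 on the Rpt3+/+ arrays. On the Rpt3-/- arrays it was -0.10, -0.13 and 0.03. By this measure the second Rpt3+/+ array lay furthest from the means. What part array brightness had in these differences was not tested.

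**Figure D1:**
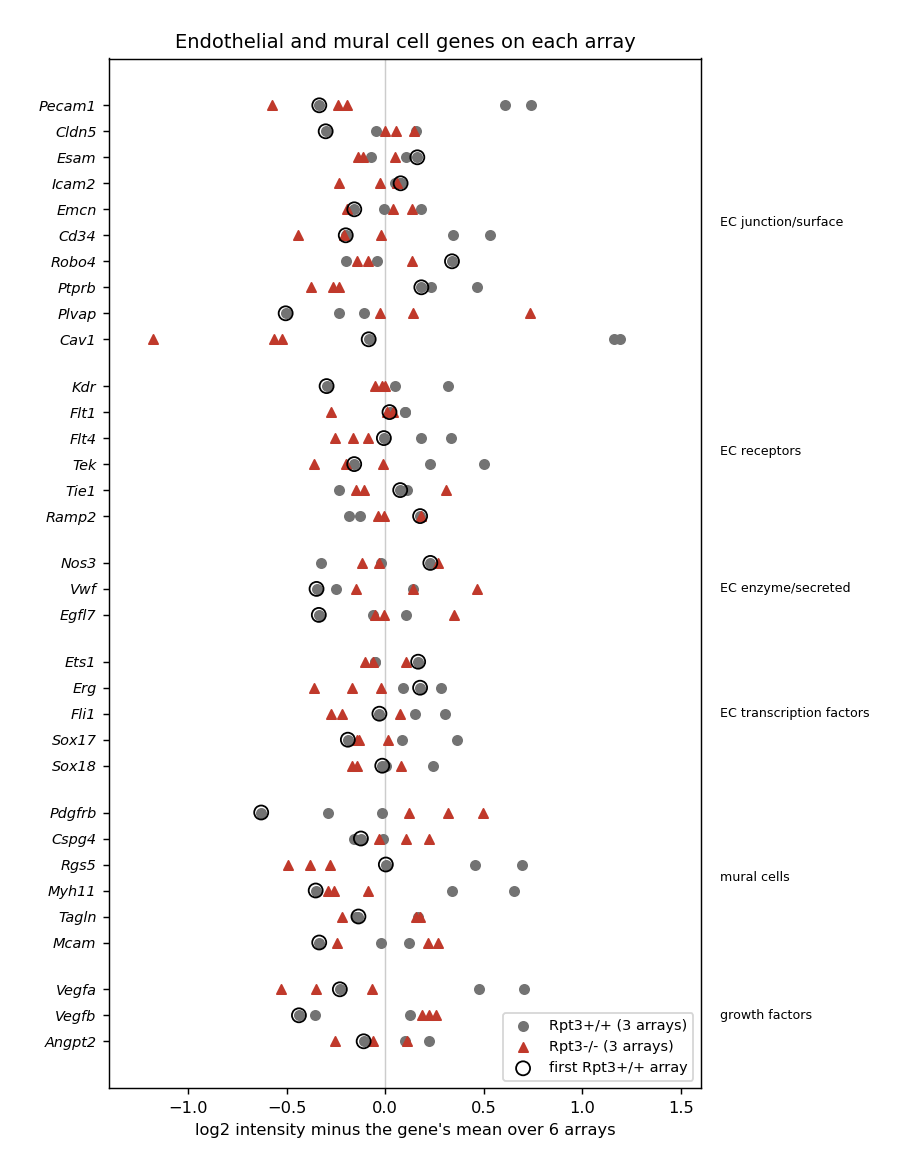
Log2 intensity of each tested gene on each array, as the difference from the gene's mean over the 6 arrays, for Rpt3+/+ mice (gray circles) and Rpt3-/- mice (red triangles), with genes grouped by role (EC, endothelial cell) and the first Rpt3+/+ array ringed. The ringed points lie lowest of the gray points for 23 of the 33 genes (69.7%, against 44.7% of all tested genes). The red and gray points are apart for 8 genes, among them Cav1, Ptprb and Rgs5. Red lies below gray for 5 of these, where 15.6% of all tested genes did so. It lies above for 3, where 21.2% did so.

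Among the genes of endothelial junctions and the cell surface, 2 of 10 tested fell and none rose, with a median log2 fold change of -0.13. The share that fell was 20%, against 6.56% of all tested genes, of which 12.7% rose. The larger difference was that of Cav1, which encodes caveolin-1, the coat protein of the caveolae that fill the surface of capillary endothelium and also occur in adipocytes and smooth muscle. Cav1 lies on chromosome 6, and RefSeq places a pair of promoters there. Each is shown from 250 bases before to 50 bases after the start in build GRCm38.p6, on the plus strand, because Cav1 is the vessel gene that changed most, and capitals mark the core of the hypoxia response element (ACGTG, read here on the minus strand).
Cav1 promoter at chr6:17306085-17306384: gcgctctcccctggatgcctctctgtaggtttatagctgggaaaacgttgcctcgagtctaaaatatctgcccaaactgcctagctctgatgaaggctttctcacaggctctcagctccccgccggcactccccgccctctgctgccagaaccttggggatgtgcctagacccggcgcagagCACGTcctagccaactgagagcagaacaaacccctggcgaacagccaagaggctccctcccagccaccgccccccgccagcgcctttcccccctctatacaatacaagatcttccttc
Cav1 promoter at chr6:17307390-17307689: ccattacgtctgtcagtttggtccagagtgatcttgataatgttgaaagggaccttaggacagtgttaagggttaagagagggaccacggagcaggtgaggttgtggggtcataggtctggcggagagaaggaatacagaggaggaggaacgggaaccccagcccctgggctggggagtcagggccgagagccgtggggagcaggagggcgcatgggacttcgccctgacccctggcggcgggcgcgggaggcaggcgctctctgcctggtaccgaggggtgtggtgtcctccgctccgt
The marked match lies 68 bases before the start of the first promoter, and the second holds none. Cav1 had log2 intensities of 8.92, 9.53 and 9.57 in Rpt3-/- mice and 10.02, 11.29 and 11.26 in Rpt3+/+ mice, here and below in the order of the replicate numbers. Every Rpt3-/- array was below every Rpt3+/+ array, and the first Rpt3+/+ array was close to the Rpt3-/- arrays. The Rpt3-/- mean was 9.34 ± 0.37 (SD, n = 3) and the Rpt3+/+ mean 10.86 ± 0.73 (SD, n = 3), and Cav1 was 2.85-fold lower in Rpt3-/- mice (log2 fold change -1.51, 95% interval -2.22 to -0.80, limma adjusted p = 0.00859). Without the first Rpt3-/- array the log2 fold change was -1.30 and did not pass (limma adjusted p = 0.0579), and without the first Rpt3+/+ array it was -1.93.

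Ptprb encodes VE-PTP, an endothelial phosphatase that holds back Tie2 and VEGF receptor signaling and steadies VE-cadherin at the junction. Its brightest probe gave log2 intensities of 10.56, 10.45 and 10.59 in Rpt3-/- mice and 11.01, 11.29 and 11.06 in Rpt3+/+ mice. The groups did not overlap, and the spread within each was small beside the distance between them. Ptprb was 1.50-fold lower in Rpt3-/- mice (log2 fold change -0.59, 95% interval -0.88 to -0.30, limma adjusted p = 0.0111). The next brightest probe differed by -0.52 (limma adjusted p = 0.0357 over probes) and the one after it by -0.46 (limma adjusted p = 0.0692 over probes), and the last was near background on all arrays. With arrays centred on their medians the brightest probe had a log2 fold change of -0.31, which did not pass (limma adjusted p = 0.210).

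Pecam1 encodes the adhesion protein CD31, the usual stain for capillaries. Its log2 intensities were 7.50, 7.83 and 7.88 in Rpt3-/- mice and 7.74, 8.81 and 8.68 in Rpt3+/+ mice. The groups overlapped through the first Rpt3+/+ array alone. The log2 fold change was -0.67 (95% interval -1.24 to -0.11, limma adjusted p = 0.0966), and -1.01 without that array (limma adjusted p = 0.000426). It was -0.47 without the second Rpt3+/+ array and -0.54 without the third (limma adjusted p = 0.162 and 0.302). Cd34, a sialomucin of capillary endothelium that is also found on progenitor cells, followed the same arrays, with 8.33, 8.56 and 8.75 in Rpt3-/- mice and 8.57, 9.30 and 9.12 in Rpt3+/+ mice. Its log2 fold change of -0.45 did not pass (limma adjusted p = 0.144) and was -0.66 without the first Rpt3+/+ array (limma adjusted p = 0.00782). It was -0.30 without the second and -0.39 without the third (limma adjusted p = 0.268 and 0.365).

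Plvap encodes the protein that forms the diaphragms of endothelial fenestrae and caveolae. By its brightest probe its log2 intensities were 8.56, 7.80 and 7.97 in Rpt3-/- mice and 7.32, 7.72 and 7.59 in Rpt3+/+ mice. The groups were apart by a narrow gap, and the first Rpt3-/- array was far above the rest. The log2 fold change was 0.57 (95% interval 0.12 to 1.01, limma adjusted p = 0.0777), and it was 0.34 without the first Rpt3-/- array (limma adjusted p = 0.246) and 0.65 without the second Rpt3+/+ array (limma adjusted p = 0.0375). It passed with arrays centred on their medians (0.63, limma adjusted p = 0.0387). With arrays centred on Actb, the β-actin gene, it was -0.13, where the median of all tested genes was -0.72. Another probe of Plvap differed by -0.11 (limma adjusted p = 0.657 over probes), so that the probes did not run the same way.

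The other tested genes of this group lay near 0. Log2 fold changes were 0.13 for Cldn5, the main claudin of tight junctions in endothelium, and -0.13 for Esam, an adhesion protein of endothelial junctions. They were -0.14 for Icam2, a ligand of leukocyte integrins, -0.01 for Emcn, a sialomucin of capillaries and veins, and -0.06 for Robo4, an endothelial guidance receptor. None passed, their adjusted p ranging from 0.517 for Icam2 to 0.963 for Emcn in limma, and the widest of their 95% intervals, that of Robo4, ran from -0.43 to 0.30.

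Of the receptors of endothelial cells, none of the 6 tested passed, with a median log2 fold change of -0.10 and all 6 values between -0.5 and 0.5. Of all tested genes, 12.7% rose, 6.56% fell and 81.1% lay between -0.5 and 0.5. Kdr encodes VEGFR2, the main signaling receptor for VEGF-A. Its log2 intensities were 8.39, 8.38 and 8.34 in Rpt3-/- mice and 8.10, 8.71 and 8.44 in Rpt3+/+ mice. The Rpt3-/- arrays lay inside the range of the Rpt3+/+ arrays, and the log2 fold change was -0.05 (95% interval -0.41 to 0.31).

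Flt4 encodes VEGFR3, the receptor for VEGF-C and VEGF-D. It had log2 intensities of 8.41, 8.32 and 8.49 in Rpt3-/- mice and 8.57, 8.91 and 8.76 in Rpt3+/+ mice, which did not overlap. The difference of -0.34 on the log2 scale did not pass (95% interval -0.64 to -0.04, limma adjusted p = 0.113), and was -0.43 without the first Rpt3+/+ array (limma adjusted p = 0.0427). It was -0.26 without the second and -0.33 without the third (limma adjusted p = 0.217 and 0.287). Tek, which encodes Tie2, had log2 intensities of 7.79, 7.63 and 7.98 in Rpt3-/- mice and 7.84, 8.49 and 8.22 in Rpt3+/+ mice. The groups overlapped at the first Rpt3+/+ array, and the log2 fold change was -0.38 (limma adjusted p = 0.174), or -0.55 without that array (limma adjusted p = 0.0199). For Tek it was -0.23 without the second Rpt3+/+ array and -0.36 without the third (limma adjusted p = 0.350 and 0.370). The log2 fold change was -0.15 for Flt1, the decoy receptor VEGFR1, 0.03 for Tie1, the partner of Tie2, and 0.09 for Ramp2, which pairs with the receptor of the vasodilator adrenomedullin.

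No enzyme, secreted protein or transcription factor of endothelial cells passed. Vwf, which encodes the von Willebrand factor that endothelial cells store for clotting, had a log2 fold change of 0.31 (95% interval -0.11 to 0.72, limma adjusted p = 0.298). That of Egfl7, a secreted protein of the endothelial matrix, was 0.19 and that of Nos3, the endothelial nitric oxide synthase, 0.08. All 5 transcription factors had values below 0, with a median of -0.17. Erg, an ETS factor that keeps endothelial identity, was the only one whose groups were apart, with log2 intensities of 8.22, 8.07 and 7.88 in Rpt3-/- mice and 8.42, 8.33 and 8.52 in Rpt3+/+ mice. Its log2 fold change was -0.37 (95% interval -0.67 to -0.06, limma adjusted p = 0.0895). The other ETS factors had log2 fold changes of -0.28 for Fli1 and -0.04 for Ets1, and the SOX factors of arterial and early endothelium had -0.17 for Sox17 and -0.15 for Sox18. Across the 24 tested endothelial genes, 2 fell and none rose, and the median log2 fold change was -0.13. The share that fell was 8.33%, against 6.56% of all tested genes, of which 12.7% rose.

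Mural cell genes were the group with calls in both directions, 1 higher and 1 lower among 6 tested, with a median log2 fold change of 0.12. Each was 16.7% of the group, against 12.7% higher and 6.56% lower of all tested genes. Rgs5, which encodes a regulator of G-protein signaling that is abundant in pericytes, fell. Its promoter in RefSeq, on chromosome 1 and the plus strand of GRCm38.p6, is shown for comparison with those of Cav1, and none of the motifs searched was found in it.
Rgs5 promoter at chr1:169655251-169655550: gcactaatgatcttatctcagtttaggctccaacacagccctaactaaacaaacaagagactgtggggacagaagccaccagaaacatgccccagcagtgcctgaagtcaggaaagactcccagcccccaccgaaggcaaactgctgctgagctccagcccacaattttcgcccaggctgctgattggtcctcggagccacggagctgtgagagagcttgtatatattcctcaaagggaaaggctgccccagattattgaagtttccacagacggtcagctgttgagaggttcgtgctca
Rgs5 had log2 intensities of 8.45, 8.56 and 8.66 in Rpt3-/- mice and 8.94, 9.64 and 9.39 in Rpt3+/+ mice. All Rpt3-/- arrays were below all Rpt3+/+ arrays, and the first Rpt3+/+ array was again the lowest of its group. The gene was 1.70-fold lower in Rpt3-/- mice (log2 fold change -0.77, 95% interval -1.16 to -0.37, limma adjusted p = 0.0130). The call was lost when Rpt3-/- array 1 was left out (-0.72, limma adjusted p = 0.0688) or the third Rpt3+/+ array (-0.73, limma adjusted p = 0.0640).

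Pdgfrb encodes the PDGF receptor that pericytes need in order to be recruited to capillaries, and it is also made by fibroblasts. Its log2 intensities were 8.92, 8.72 and 9.10 in Rpt3-/- mice and 7.97, 8.59 and 8.31 in Rpt3+/+ mice. The groups were separated by a small gap between the second Rpt3-/- and the second Rpt3+/+ array. Pdgfrb was 1.54-fold higher in Rpt3-/- mice (log2 fold change 0.62, 95% interval 0.23 to 1.01, limma adjusted p = 0.0320). With each array centred on Actb its log2 fold change was -0.02, where the median of all tested genes was -0.72. The call was lost when Rpt3-/- array 1 or 3 was left out (0.62 and 0.53, limma adjusted p = 0.109 and 0.134) or the third Rpt3+/+ array (0.63, limma adjusted p = 0.102), nor in the value table that the authors deposited (0.72, limma adjusted p = 0.0731). Fibroblast markers moved with it, as 3 of 9 tested were higher and none lower, their summed intensity being 37288 to 40872 in Rpt3-/- mice and 28943 to 32946 in Rpt3+/+ mice, and their part in the Pdgfrb result was not tested.

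The other mural genes did not pass. Myh11, the heavy chain of smooth muscle myosin, had log2 intensities of 8.76, 8.79 and 8.96 in Rpt3-/- mice and 8.69, 9.70 and 9.38 in Rpt3+/+ mice. The first Rpt3+/+ array lay below all Rpt3-/- arrays and the other Rpt3+/+ arrays above them, so that the log2 fold change was -0.42 (limma adjusted p = 0.229) with all arrays and -0.71 (limma adjusted p = 0.00407) without that array. It was -0.20 without the second Rpt3+/+ array and -0.36 without the third (limma adjusted p = 0.468 and 0.472). The log2 fold changes of Cspg4, the pericyte proteoglycan NG2, of Mcam, an adhesion protein of pericytes and endothelium, and of Tagln, the smooth muscle protein SM22, were 0.20, 0.16 and 0.08.

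**Figure D2:**
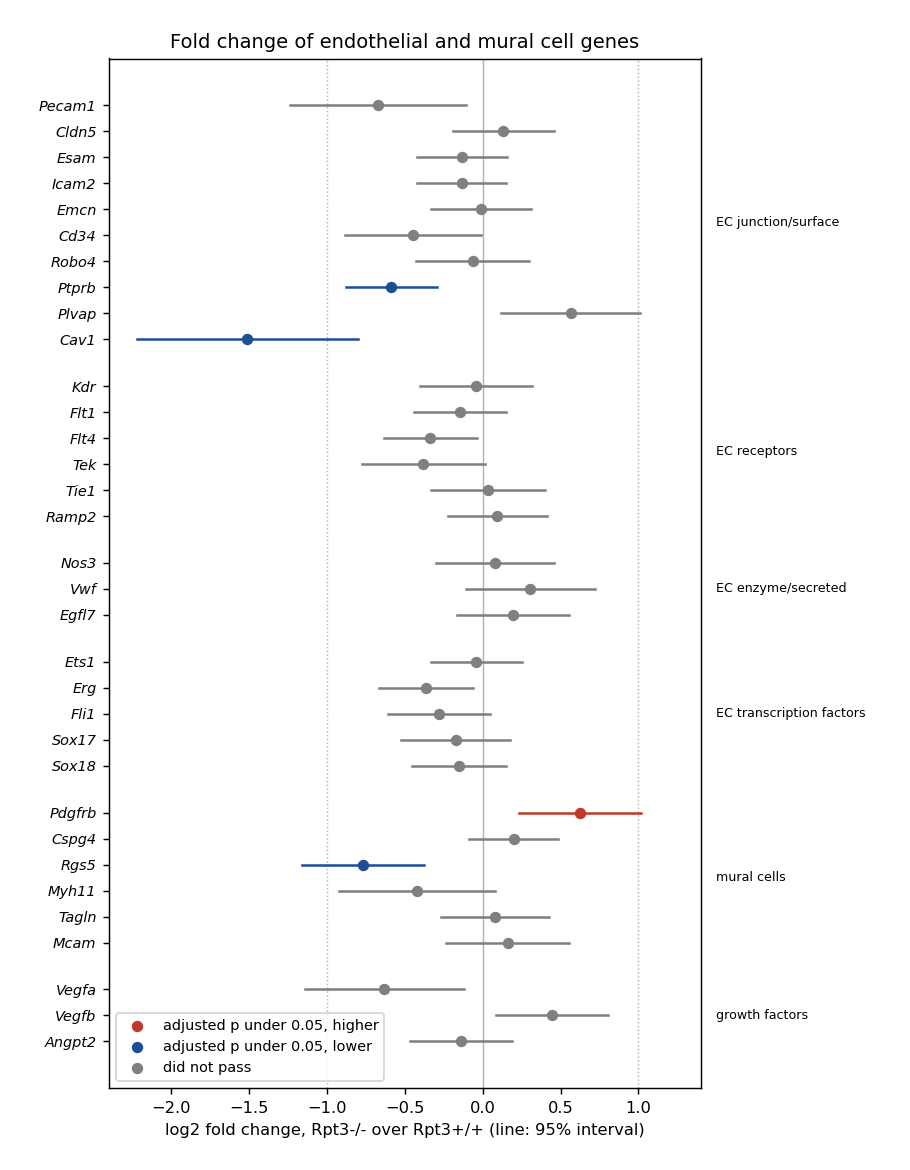
Log2 fold change of each tested gene between Rpt3-/- and Rpt3+/+ mice (point) with its 95% interval from limma (line), grouped by role (EC, endothelial cell), with dotted lines at -1 and 1. Cav1 at -1.51, Rgs5 at -0.77 and Ptprb at -0.59 passed as lower, and Pdgfrb at 0.62 as higher. With arrays centred on Actb, Pdgfrb was at -0.02 and the median of all tested genes at -0.72. In the figure, 26 of the 33 points (78.8%, against 81.1% of all tested genes) lie between -0.5 and 0.5.

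Growth factors were measured by 3 genes, of which none passed, where 12.7% of all tested genes rose and 6.56% fell. Vegfa encodes VEGF-A, which is released by muscle fibers under low oxygen and exercise and sustains capillaries. Its log2 intensities were 7.88, 8.06 and 8.34 in Rpt3-/- mice and 8.18, 9.11 and 8.88 in Rpt3+/+ mice. The first Rpt3+/+ array lay among the Rpt3-/- arrays and the other Rpt3+/+ arrays were above all of them. The log2 fold change was -0.63 (95% interval -1.14 to -0.12, limma adjusted p = 0.0829), and -0.91 without the first Rpt3+/+ array (limma adjusted p = 0.00130). It was -0.44 without the second and -0.55 without the third (limma adjusted p = 0.144 and 0.255).

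Vegfb encodes VEGF-B, a ligand of VEGFR1 tied to fatty acid uptake by endothelium. It had log2 intensities of 8.81, 8.85 and 8.88 in Rpt3-/- mice and 8.19, 8.75 and 8.27 in Rpt3+/+ mice. The Rpt3-/- arrays were close together and above all Rpt3+/+ arrays. Its log2 fold change of 0.45 did not pass (95% interval 0.09 to 0.80, limma adjusted p = 0.0823), though it did without the second Rpt3+/+ array, at 0.62 (limma adjusted p = 0.00669), and with arrays centred on their medians, at 0.56 (limma adjusted p = 0.0165). With arrays centred on Actb it was -0.21, where the median of all tested genes was -0.72. Angpt2, the context-dependent antagonist of Tie2, had a log2 fold change of -0.14.

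**Figure D3:**
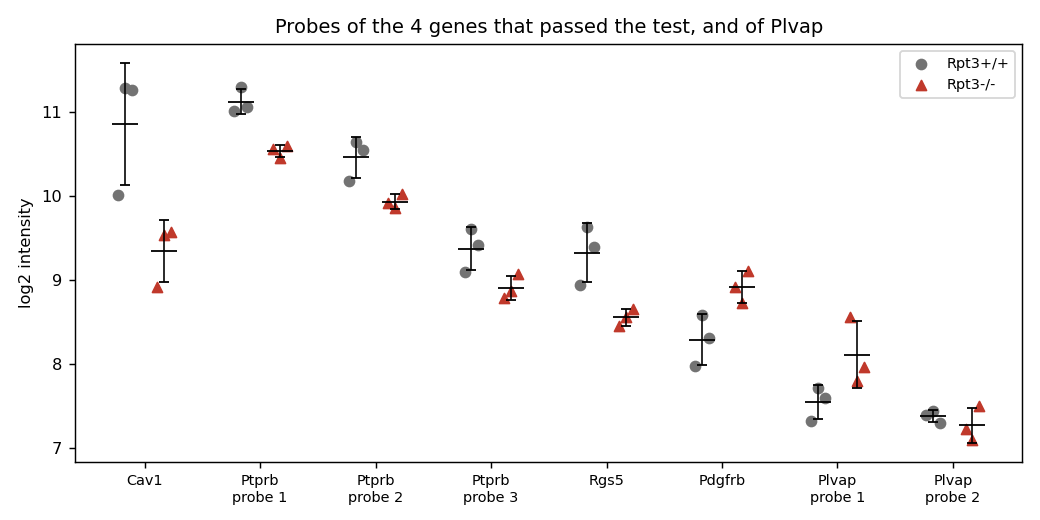
Log2 intensity on each array of the probes of Cav1, Ptprb, Rgs5 and Pdgfrb, which passed the test, and of Plvap, whose probes differed, for Rpt3+/+ mice (gray circles) and Rpt3-/- mice (red triangles), with group means (horizontal bars) and SD (error bars, n = 3). The 3 probes of Ptprb above background are all lower in Rpt3-/- mice, at -0.59, -0.52 and -0.46, while the probes of Plvap differ by 0.57 and -0.11. Pdgfrb is higher by 0.62. With arrays centred on Actb it was at -0.02 and the median of all tested genes at -0.72.

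Promoters in RefSeq, each of 300 bases, were at hand for 19 of the listed genes, 25 promoters in all, and short motifs were searched in them on both strands. The ETS motif CAGGAAG was found in 6 of the 25 (24%), those of Cd34, Egfl7, Emcn, Erg and Robo4, against 13.3% of 32851 promoters. The ETS motif CCGGAAG was in none of the 25 and in 8.86% of all. The hypoxia response core, ACGTG or GCGTG, was in 10 (40%), with Cav1, Vegfa, Kdr and Flt1 among the genes, against 43.8% of all promoters. The SOX core AACAAT was in 3 (12%), those of Emcn, Erg and Tek, against 10.7% of all. The CArG box of smooth muscle genes was in none of the 25 and in 1.63% of all. Matches of different motifs that overlap were counted for each motif, and a match is a description of the letters only.

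Other genes of vessel signaling were read from lists that leave out the 37 genes. Of 14 tested receptors and ligands of the VEGF, semaphorin, apelin, PDGF, FGF, angiopoietin-like and sphingosine 1-phosphate families, 3 rose and 1 fell, with a median log2 fold change of -0.09. These were 21.4% and 7.14%, against 12.7% and 6.56% of all tested genes. Angptl4, a secreted inhibitor of lipoprotein lipase that responds to fasting and hypoxia, rose by 1.55 on the log2 scale (limma adjusted p = 0.000629). Vegfd, a ligand of VEGFR3, rose by 1.32 (limma adjusted p = 0.000489), with log2 intensities of 8.42, 8.84 and 8.84 in Rpt3-/- mice and 7.22, 7.60 and 7.31 in Rpt3+/+ mice. These groups were far apart. S1pr1, the endothelial receptor for sphingosine 1-phosphate, fell by 0.74 (limma adjusted p = 0.00233), or by 1.19 in the deposited value table. Plxnd1, the endothelial semaphorin receptor, had 0.42 (limma adjusted p = 0.0442). It was -0.23 with arrays centred on Actb, where the median of all tested genes was -0.72. Among the fits that leave out an array, it passed only without the second Rpt3+/+ array (limma adjusted p = 0.0410). Of 16 tested genes of Notch and BMP signaling none rose and 1 fell (6.25%), Hey1, a transcription factor downstream of Notch. Its groups overlapped, its log2 fold change was -0.79 (limma adjusted p = 0.0468), and it passed in only 1 of the 6 fits that leave out an array, that without the first Rpt3+/+ array (-1.08, limma adjusted p = 0.000610).

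Among 37 further endothelial genes, 4 fell and 1 rose, with a median log2 fold change of -0.04. These were 10.8% and 2.70%, against 6.56% and 12.7% of all tested genes. Aqp1 encodes the water channel of capillary endothelium and red cells. It had log2 intensities of 9.17, 9.32 and 9.33 in Rpt3-/- mice and 10.40, 10.65 and 10.67 in Rpt3+/+ mice. The groups were far apart, and the fall of 1.30 on the log2 scale passed in every fit that left out an array (limma adjusted p = 0.000174 with all arrays). Cd36, a fatty acid transporter of capillaries that fibers and macrophages also make, had -1.09 (limma adjusted p = 0.0152) and lost its call without the first Rpt3-/- array (-0.88, limma adjusted p = 0.0837) or the third Rpt3+/+ array (-0.96, limma adjusted p = 0.0732). Adgrf5, an adhesion receptor of endothelium, had -0.62 (limma adjusted p = 0.00997) and did not pass without the third Rpt3-/- array (-0.54, limma adjusted p = 0.0517). Mmrn1, a multimerin of endothelial cells and platelets, had -0.54 (limma adjusted p = 0.0156) and is named after its values were seen. Stab1, a scavenger receptor made by sinusoidal endothelium and by macrophages, rose by 1.16 (limma adjusted p = 0.00167), and macrophage markers rose with it, as given below.

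Of 21 further mural and smooth muscle genes, 5 fell and 2 rose, with a median log2 fold change of -0.26. These were 23.8% and 9.52%, against 6.56% and 12.7% of all tested genes. Abcc9, a subunit of the ATP-sensitive potassium channel in pericytes that is also found in muscle fibers, fell from 7.52, 8.20 and 8.04 in Rpt3+/+ mice to 6.86, 6.81 and 6.97 in Rpt3-/- mice on the log2 scale. The groups were apart, with a log2 fold change of -1.04 (limma adjusted p = 0.00279). Synpo2, an actin-binding protein of smooth muscle and of sarcomeres, fell by 0.85 (limma adjusted p = 0.00185), by 0.55 with arrays centred on their medians and by 0.53 as the mean of its probes. Ndufa4l2, a mitochondrial protein enriched in pericytes, had -0.55 (limma adjusted p = 0.0260) and lost its call when any 1 Rpt3-/- array or the third Rpt3+/+ array was left out (-0.60 to -0.46, limma adjusted p from 0.0535 to 0.113), with arrays centred on their medians (-0.29, limma adjusted p = 0.212) and in the deposited value table (-0.60, limma adjusted p = 0.0556). Itga7, the laminin-binding integrin of muscle and smooth muscle, had 0.87 (limma adjusted p = 0.0140). It was 0.17 with arrays centred on Actb, where the median of all tested genes was -0.72. Itga7 lost its call when Rpt3-/- array 1 or 3 was left out (0.83 and 0.74, limma adjusted p = 0.0716 and 0.0709). The remaining calls, named after their values were seen, were Srf at -0.53, Tpm1 at -0.50 and Pln at 0.43, all of which muscle fibers or the heart also make.

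Genes of the response to low oxygen had a median log2 fold change of -0.02 over 16 tested, with 2 higher and 1 lower. These were 12.5% and 6.25%, against 12.7% and 6.56% of all tested genes. Egln1, which encodes the oxygen sensor PHD2, fell by 1.25 (limma adjusted p = 0.000844). Slc2a1, the glucose transporter GLUT1, rose by 1.15 (limma adjusted p = 0.00115) and was above background on 1 of the 3 Rpt3+/+ arrays. Its difference was 2.15 in the deposited value table (limma adjusted p = 0.00870) and 0.39 with arrays centred on Actb, where it did not pass (limma adjusted p = 0.160). With that centring, also given for Arnt and Nid1 below, the median of all tested genes was -0.72. Arnt, the partner of the hypoxia-inducible factors, had 0.46 (limma adjusted p = 0.0246), was -0.19 with arrays centred on Actb and lost its call when Rpt3-/- array 1 or 3 or Rpt3+/+ array 3 was left out (0.42, 0.45 and 0.43, limma adjusted p = 0.0891, 0.0852 and 0.128). Of 11 tested genes of vascular basement membrane, with a median of 0.20, 1 was higher (9.09%) and none lower. This was Nid1, which encodes nidogen-1, with a log2 fold change of 0.72 (limma adjusted p = 0.0250). Nid1 lost its call when any 1 Rpt3-/- array was left out (0.71 to 0.74, limma adjusted p from 0.0742 to 0.0919), and was 0.12 with arrays centred on Actb and 0.48 without the first Rpt3+/+ array (limma adjusted p = 0.0198).

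**Figure D4:**
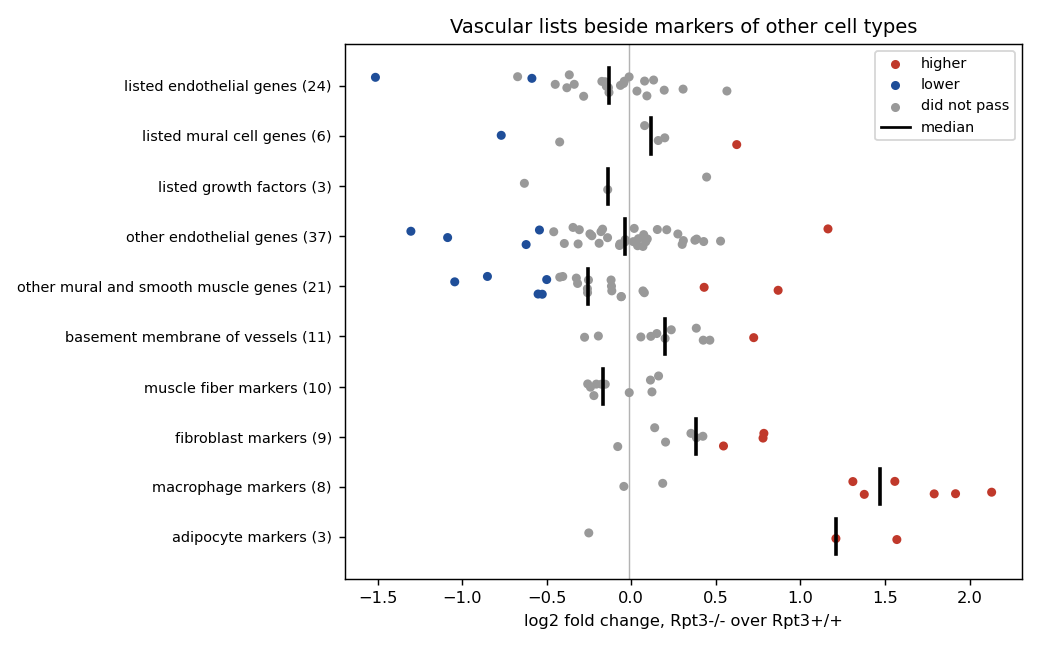
Log2 fold change between Rpt3-/- and Rpt3+/+ mice of each tested gene in the vessel lists and in marker lists of other cell types, with the number tested in parentheses, the median as a black bar, and genes that passed as higher in red and as lower in blue. The medians of the vessel lists lie between -0.26 and 0.20, that of the macrophage markers at 1.47 and that of the 3 adipocyte markers at 1.21. The lowest adipocyte marker lies at -0.25.

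Markers of other cells moved in the same samples, in which 12.7% of all tested genes rose and 6.56% fell. Of 8 tested macrophage markers, 6 rose, with a median log2 fold change of 1.47 and a summed intensity of 5753 to 8455 in Rpt3-/- mice against 2179 to 2541 in Rpt3+/+ mice, while the defining markers Adgre1 and Itgam were near background on more than 3 arrays. Of 3 tested adipocyte markers, Adipoq and Cfd rose, and the summed intensity was 3448 to 4084 against 2071 to 2573. The other, Cidec, did not pass, at a log2 fold change of -0.25 with every Rpt3-/- array below every Rpt3+/+ array. Of 9 tested fibroblast markers, Pdgfra, Col3a1 and Mfap5 rose, with a median of 0.39. Of 6 tested platelet and erythrocyte markers 2 rose and none fell, and of 3 tested leukocyte markers 1 rose and 1 fell. The 10 muscle fiber markers gave no call, with a median of -0.17, as did 6 Schwann cell and 4 satellite cell markers. Fiber markers such as Acta1 and Ckm were among the brightest genes, at percentiles 100 and 99.97 of mean log2 intensity. Quantile normalization gives the brightest probes nearly the same values on every array, so that the lack of a call there says little. What part these other cells had in the values of the vessel genes was not tested. Psmc4, the deleted gene, was 2.24-fold lower in Rpt3-/- mice on its brightest probe (log2 fold change -1.17, limma adjusted p = 0.000309), and the mean of its probes differed by -0.70. Probes above background made up 57.0% to 74.5% of all probes on an array.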

How the data were processed

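Total RNA of 1 muscle per mouse was hybridised to CodeLink whole-genome bioarrays of the mouse. Each slide carried 1 array, so that no block for slide was possible. The deposited scanner reports give, per the file headers, the intensity, local background and quality flag of each spot as CodeLink Expression Analysis 5.0.0.31312 wrote them, without normalization between arrays. A value table of linear intensities was deposited too (median 89.0 in every column, correlation of at least 0.997 with its own array on the log2 scale), and was used as an alternative.

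Of 34967 transcript probes, 21615 had 1 gene in the platform annotation, 681 several, and 12671 were not listed, of which 536 were named by accession through RefSeq (GRCm38.p6). Intensities were corrected by normexp (offset 50), control spots left out (1260), quantile normalized and fitted as log2 values with lmFit and eBayes of limma 3.58.1 in R 4.3.3, with Benjamini-Hochberg adjustment over 14732 genes. Genes were tested by their brightest probe above background on 3 or more arrays, which left 51 genes with a missing spot on some array. Intensities summed over a list are linear values after normalization. The 3 arrays of a group are 3 mice. Signal over background and 3 arrays per group limit the precision.

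The 37 genes, the other lists and the rules were chosen with earlier results of these data known. Every listed gene is named, and of each other list the called genes up to the 4 with the largest change. The steps were tested on simulated data, and the files were read with Python 3.11.15. Alternatives were other background corrections, normalizations, filters and variance models, the mean of probes, the study's unpaired parametric test (the methods' test), a replicate block, leaving out each array and, added after the data were seen, limma without adjustment.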

Additional observations from a re-analysis of the deposited data

How the results depend on the processing

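With 3 arrays per group, the counts of vessel genes that passed moved with the processing, and the causes were not tested. The counts higher and lower, 1 and 3 as reported, were 0 and 3 with plain background subtraction and with the deposited value table, 3 and 2 with median centring, 3 and 11 with array weights, 0 and 1 by the methods' test with Benjamini-Hochberg adjustment, 1 and 5 by that test without adjustment, and 3 and 8 by limma without adjustment. All tested genes gave 1870 and 967 as reported. They gave 1557 and 709 with plain subtraction, 1571 and 692 with the deposited table and 2556 and 600 with median centring. Array weights gave 3008 and 2361. The methods' test gave 940 and 427 with adjustment and 2502 and 1636 without, and limma without adjustment 2823 and 1894. Over the fits that left out 1 array the count of vessel genes higher ranged from 0 to 3 and the count lower from 1 to 9. All tested genes ranged from 1081 to 2332 and from 388 to 1418. Both vessel counts stayed within 1.5 times with offset 16, no background correction, cyclic loess, either other filter, the mean of probes and the trended robust variance. Median centring gave a median log2 fold change of 0.00076 for the 33 genes.

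Centring on Actb was applied to the median-centred arrays, and Actb itself passed as higher after quantile normalization (0.45, limma adjusted p = 0.0294). This centring moved the median of all genes to -0.72 and that of the vessel genes to -0.77. It gave 0 vessel genes higher and 27 lower, and 329 and 10327 over the 14732 tested genes. All 12 vessel genes above 0 turned sign there, to -0.58 for Cldn5, -0.51 for Mcam, -0.71 for Nos3, -0.021 for Pdgfrb, -0.57 for Ramp2, -0.50 for Tagln, -0.64 for Tie1, -0.13 for Plvap, -0.21 for Vegfb, -0.37 for Vwf, -0.44 for Egfl7 and -0.50 for Cspg4. Of the other named genes Arnt turned to -0.19 and Plxnd1 to -0.23.

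Same-numbered arrays of the groups had correlations of 0.13, -0.44 and 0.098 between their deviations from the group means. Those between arrays of different number ran from -0.48 to 0.47. With 3 arrays per group these values cannot show whether the numbers pair the mice. A fit with the replicate number as a block gave 1 vessel gene higher and 5 lower, Pecam1 and Vegfa being added. Over all 14732 tested genes it gave 1722 higher and 873 lower.

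Over 21 settings, Ptprb passed in 20, Cav1 in 19, Rgs5 in 18 and Pdgfrb in 14. The settings share the same arrays and include the methods' test without adjustment. They also include the centring on Actb, where 10327 of 14732 tested genes passed as lower and 329 as higher. That setting favors genes that fell over genes that rose.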
